A study of Mus musculus with 4 samples.

Results

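Kinesins are motor proteins that use ATP to move along microtubules or to take them apart. Some build and position the spindle and finish cell division, while others carry vesicles, organelles and RNA through the cytoplasm or along cilia. The genes described here were all those whose name on the array was Kif or Kifc followed by a number and at most 1 letter, which gave 39 genes of 27827 gene names, with the brightest probe standing for each gene. By textbook roles, 13 were grouped as mitotic kinesins, 15 as transport kinesins and 11 as other kinesins. The last take apart or regulate microtubules, serve cilia or have less settled roles. The array named 2 further mitotic kinesins otherwise (Cenpe, and Kif18b under the name 3000004C01Rik), and these are given apart.

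The study asked how cultured mouse spermatogonial stem cells, which sustain sperm production in the testis, respond to loss of fibroblast growth factor (FGF) signalling. Cells came from C57/BL6 x DBA/2 F1 mice at day 5 of age and were kept in serum-free medium based on MEMa that held 5 ng/ml FGF2 and GDNF at 40 ng/ml. In the treated cultures FGF2 was left out and SU5402, an inhibitor of FGF receptors, was added for 12 h, while the controls stayed in the normal culture. There were 4 biological replicates of each, and feeder cells are not stated in the sources used here. Total RNA of a treated culture (Cy3, green) and of a control culture (Cy5, red) was hybridised together on each of 4 arrays. Each log2 ratio below is treated over control, so that a negative value is a lower level after FGF signalling was blocked. Dyes were not swapped, and a dye effect of a single probe and the treatment therefore cannot be told apart.

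Across the arrays the ratios of the 18495 tested genes correlated between array pairs at r from 0.906 to 0.947 (a description over genes, which are not replicates). A gene was called changed at an adjusted p under 0.05 in limma, with Benjamini-Hochberg adjustment over all tested genes. By this rule 68.4% of all tested genes were called, 37.6% as higher and 30.9% as lower. The median of all ratios was 0.02, so a call on its own is common in these data. All 11 listed markers of undifferentiated spermatogonia were well above background on every array in both channels. Their median log2 ratio was -0.33, and 7 of them were called lower and 0 higher. Their summed signal ranged from 223017 to 261772 in the treated and from 346848 to 378984 in the control samples. The marker lists of other cells moved as well. All 9 Sertoli cell markers were called higher (median log2 ratio 2.37; summed signal 208856 to 221016 treated, 27364 to 31740 control). Of 10 fibroblast and feeder markers, 9 were called higher (median 1.56; 1601976 to 1734735 treated, 597639 to 667204 control), and all 7 macrophage markers were called lower (median -1.15; 51166 to 63989 treated, 122400 to 146723 control). The part of these cells in the kinesin results was not tested, and in bulk RNA fewer cells of a type and less RNA per cell cannot be told apart.

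Of the 39 kinesins, 38 passed the filter on dim probes. Kif12 was well above background on 2 of 4 arrays in each channel and was not tested. Among the 38, 11 were called higher (28.9%, against 37.6% of all tested genes) and 18 lower (47.4%, against 30.9%). Their median log2 ratio was -0.22. With the scanner's own ratios, not centred, which lower the median of all tested genes by -0.147, the calls were 7 higher and 23 lower. Of all 18495 tested genes, 5612 were then called higher and 7860 lower. The largest differences were increases: 3 kinesins were at least 2-fold higher (Kif5b, Kif26b and Kif1a) and 0 at least 2-fold lower, where 11.6% and 1.65% of all tested genes were. The treated and control levels did not overlap for 28 of the 38 (73.7%), against 61.1% of all tested genes. The ratio had the same sign on all 4 arrays for 30 of the 38 (78.9%), against 73.6% of all tested genes.

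**Figure D1:**
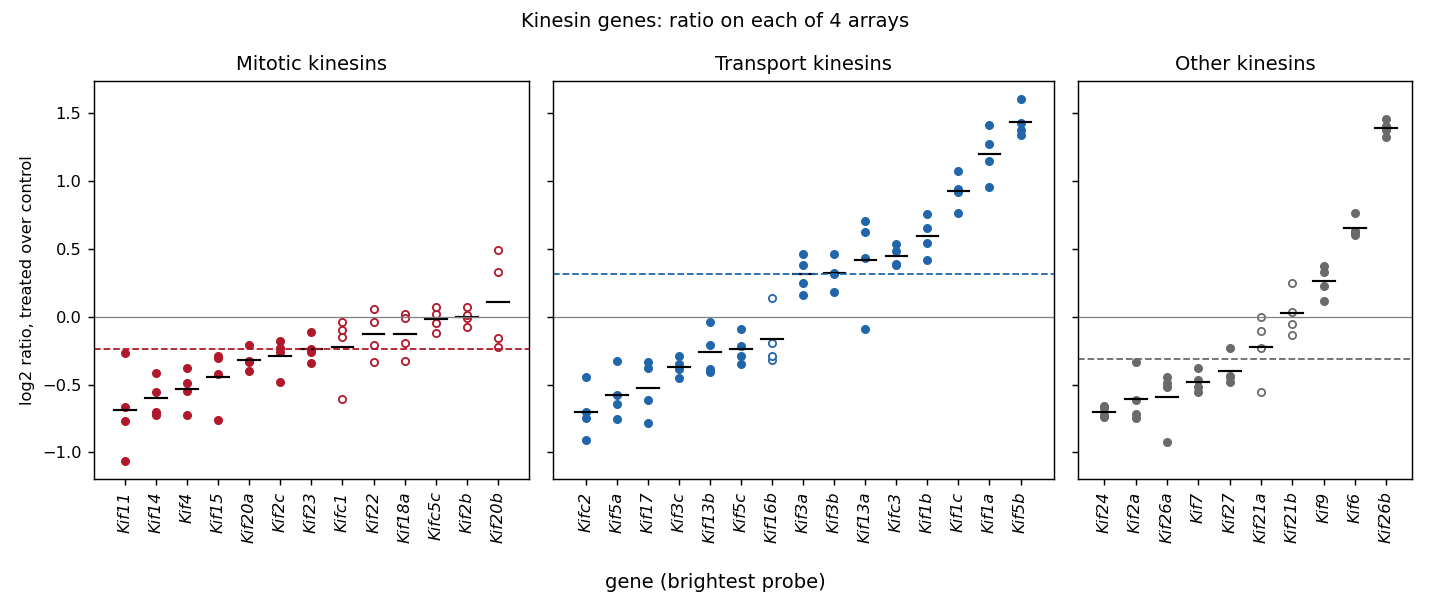
Log2 ratio (treated over control) of each tested kinesin on each of the 4 arrays (points, filled where the gene was called) with the mean as a bar, by class, and the class median as a dashed line. The mitotic kinesins lay between -0.69 and 0.11, while the transport kinesins spread from -0.70 to 1.44.

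At their brightest probes, the mitotic kinesins that were called were all lower, while the transport kinesins went both ways. Of the 13 mitotic kinesins 7 were called lower (53.8%), 0 higher and 6 were not called, with a median log2 ratio of -0.24. Of the 15 transport kinesins 8 were called higher (53.3%), 6 lower (40.0%) and 1 was not called, with a median of 0.31. Over all tested genes the shares were 37.6% higher and 30.9% lower. With Kif2a counted as mitotic and Kif21a and Kif21b as transport kinesins, the transport median was 0.024. The spread of the transport class was also wider, with an SD between genes of 0.66 against 0.24 for the mitotic class and 0.71 for all tested genes. The mitotic median was below the transport median on all 4 arrays, by -0.28, -0.50, -0.57 and -0.36, a mean of -0.43 ± 0.13 (SD, n = 4). Array 1 gave the smallest gap, and there the transport median itself was -0.04. No p is given for these class values, since the genes were grouped with results of these data known.

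**Figure D2:**
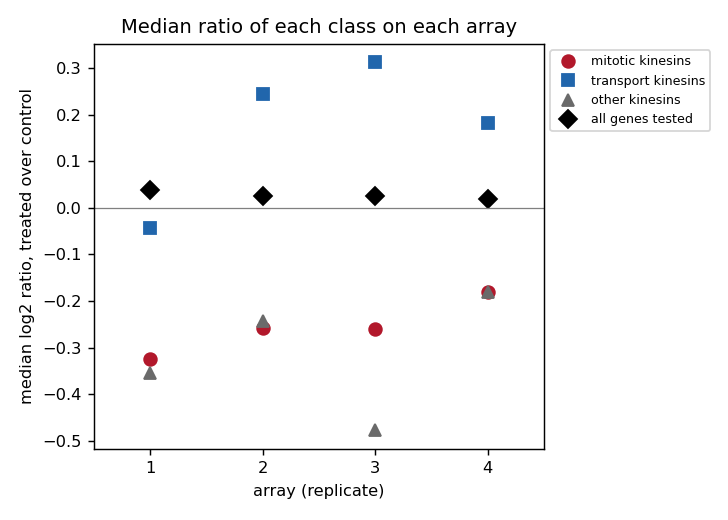
Median log2 ratio of the mitotic, transport and other kinesins and of all tested genes on each of the 4 arrays. The mitotic median was negative on all 4 arrays, from -0.33 to -0.18, and the transport median ranged from -0.04 to 0.31.

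The promoters of some mitotic kinesins are shown first because most of this class share sequence features that were not used to choose its members. Each mitotic promoter shown holds such a feature. Many genes of late cell cycle phases carry TTTGAA, the core of the cell cycle genes homology region (CHR), near their start, often downstream of CCAAT, the motif of the factor NF-Y. Both motifs were searched on both strands in RefSeq windows of GRCm38.p6 from 250 bases before to 50 bases after each start, and 31 of the 39 kinesins had a window. In the stretches below, from 100 bases before the start to 30 bases from it, capitals mark TTTGAA (or TTCAAA on the other strand) and CCAAT (or ATTGG). They are at chr19:37376282-37376411 (Kif11, + strand), chr9:122950981-122951110 (Kif15, +), chr7:127042391-127042520 (Kif22, -), chr9:61946770-61946899 (Kif23, -), chrX:100625965-100626094 (Kif4, +) and chr17:33890604-33890733 (Kifc1, -). Other mitotic windows are not shown, among them Kif18a and Kif2b without TTTGAA and Kif20b with it. The transport kinesin Kif1c, at chr11:70700448-70700577 (+), is shown for contrast. It holds neither motif, whereas Kif1a of its class holds TTTGAA, and Kif1b, Kif3a and Kif3b hold CCAAT.
Kif11: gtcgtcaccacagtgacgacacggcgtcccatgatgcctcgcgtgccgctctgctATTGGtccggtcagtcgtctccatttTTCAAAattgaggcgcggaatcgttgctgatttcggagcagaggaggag
Kif15: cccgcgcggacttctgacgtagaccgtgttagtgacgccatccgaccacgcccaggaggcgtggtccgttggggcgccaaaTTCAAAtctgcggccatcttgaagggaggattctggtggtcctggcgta
Kif22: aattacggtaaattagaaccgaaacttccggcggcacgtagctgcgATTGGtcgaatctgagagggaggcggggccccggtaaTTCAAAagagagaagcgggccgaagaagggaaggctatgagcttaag
Kif23: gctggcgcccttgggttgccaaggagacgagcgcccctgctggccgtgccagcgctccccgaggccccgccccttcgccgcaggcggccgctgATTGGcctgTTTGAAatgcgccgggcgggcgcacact
Kif4: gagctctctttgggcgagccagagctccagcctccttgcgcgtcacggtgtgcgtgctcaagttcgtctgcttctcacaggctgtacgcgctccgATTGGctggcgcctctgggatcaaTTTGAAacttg
Kifc1: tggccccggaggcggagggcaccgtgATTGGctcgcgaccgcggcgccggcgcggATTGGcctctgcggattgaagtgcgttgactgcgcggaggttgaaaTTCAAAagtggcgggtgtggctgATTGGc
Kif1c: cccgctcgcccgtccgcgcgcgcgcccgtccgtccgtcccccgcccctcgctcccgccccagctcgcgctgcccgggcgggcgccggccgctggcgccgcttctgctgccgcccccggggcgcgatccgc

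TTTGAA was found in 9 of 11 windows of mitotic kinesins (81.8%), 1 of 12 windows of transport kinesins (8.3%), 2 of 12 windows of other kinesins (16.7%) and 17.9% of all 32851 windows. CCAAT was found in 7 of the 11 mitotic windows (63.6%), 4 of the 12 transport windows (33.3%), 4 of the 12 windows of other kinesins (33.3%) and 37.4% of all windows. Both motifs stood together in 6 of the 11 mitotic windows (54.5%), 0 of the 12 transport windows, 2 of the 12 windows of other kinesins (16.7%) and 7.0% of all windows. In Kif11 and Kif15 the TTTGAA match began at position -19 relative to the start, in Kif22 at -17, and in Kifc1, Kif23 and Kif4 at 2, 3 and 20. Of the 9 mitotic kinesins with TTTGAA, 6 were called lower (Kif11, Kif14, Kif15, Kif2c, Kif23 and Kif4) and 3 were not called (Kif20b, Kif22 and Kifc1). Over all tested genes 37.6% were called higher and 30.9% lower. The 2 mitotic kinesins with a window but no match, Kif18a and Kif2b, were not called. Kif18a was called lower with scanner ratios (-0.31, limma adjusted p = 0.0147) and with the GC trend removed (-0.23, 0.029). Kif22 and Kifc1, which have a match, were also called lower with scanner ratios. The 1 transport kinesin with a match was Kif1a, which was called higher. The 2 other kinesins with a match also held CCAAT, and of these Kif26b was called higher and Kif27 lower. These matches describe the windows only, with no test.

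Among the mitotic kinesins, the spindle motor Kif11 (kinesin-5), which slides antiparallel microtubules apart to separate the poles, had the lowest ratio. Its probe (chr19:37495755-37495814, mm9 as are all probe positions below) gave normalised log2 levels of 11.20, 11.39, 11.09 and 11.25 in the treated and 11.87, 12.16, 12.15 and 11.51 in the control samples of arrays 1 to 4. All 4 treated samples lay below all 4 controls, although the control of array 4 came close to the treated sample of array 2. Kif11 fell by 0.69 ± 0.11 (SE) on the log2 scale, or 1.61-fold (limma adjusted p = 0.000537). A dimmer Kif11 probe gave -0.12 and was not called (limma adjusted p over probes = 0.538). Kif15, which works beside Kif11 to keep spindles bipolar, had treated levels of 10.98, 11.28, 10.81 and 11.12 and control levels of 11.40, 11.57, 11.57 and 11.42. The treated samples were again all below the controls, and Kif15 fell by 0.44 ± 0.09 (SE; limma adjusted p = 0.00182). Its second probe gave a ratio of 0.0035 (limma adjusted p over probes = 0.976), so for both of these genes the decrease rested on 1 of the 2 probes. The second probe was dimmer by 3.52 log2 units for Kif11 and 3.36 for Kif15.

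Kif4, a chromosome-arm motor that also organises the central spindle, had a lower level with both of its probes. The levels were 13.57, 13.68, 13.63 and 13.74 in the treated and 14.12, 14.16, 14.35 and 14.12 in the control samples (chrX:97922126-97922185). No treated sample reached a control, and Kif4 fell by 0.53 ± 0.08 (SE; limma adjusted p = 0.000217), with -0.50 at its second probe. Kif14, which acts with citron kinase in cytokinesis, had treated levels of 11.25, 10.88, 11.02 and 11.03 and control levels of 11.66, 11.60, 11.57 and 11.73 (chr1:138426006-138426065). Its channels did not overlap, and it fell by 0.60 ± 0.08 (SE; limma adjusted p = 0.000101).

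The kinesin-6 motors act at the central spindle and midbody. Kif20a, which brings Polo-like kinase to the central spindle, had treated levels of 15.89, 16.02, 15.89 and 16.01 and control levels of 16.22, 16.35, 16.28 and 16.22. These sets did not overlap, and Kif20a fell by 0.32 ± 0.07 (SE; limma adjusted p = 0.00259), with -0.24 at its second probe. With median-centred processed signals in place of the loess values the ratio was -0.27 and no longer called (limma adjusted p = 0.113), while with each array centred on its median it was -0.67 (limma adjusted p = 0.00166). Kif23, the motor subunit of centralspindlin, had treated levels of 12.71, 12.78, 12.69 and 12.77 and control levels of 13.05, 13.02, 12.95 and 12.88. All treated samples lay below all controls. Kif23 fell by 0.24 ± 0.07 (SE; limma adjusted p = 0.0133). This call was lost without array 1 (-0.20, limma adjusted p = 0.067) and with the second probe (-0.16, 0.116 over probes). Kif20b, the remaining kinesin-6, was split between arrays: its ratios were -0.16, -0.22, 0.49 and 0.33, and the mean of 0.11, which was below 0 with the other scalings of the scanner's signals (-0.025 and -0.074), was not called (limma adjusted p = 0.441).

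The microtubule depolymerase Kif2c, which corrects wrong kinetochore attachments, fell by 0.29 (limma adjusted p = 0.00727). The other mitotic kinesins were not called. These were Kifc1, the minus-end motor that focuses spindle poles (-0.22, limma adjusted p = 0.0695), the chromosome motor Kif22 (-0.13), Kif18a, which limits chromosome oscillation (-0.13), Kifc5c, a pseudogene of the Kifc1 family (-0.02), and the depolymerase Kif2b (0.00, or -0.13 and -0.18 with the other scalings). Some of these were called lower in other settings: Kifc1 and Kif22 with scanner ratios (-0.41 and -0.27, limma adjusted p = 0.0103 and 0.027), Kif18a with scanner ratios (-0.31, 0.0147) and with the trend over probe GC content removed (-0.23, 0.029), Kif22 with median centring (-0.37, 0.0492), and Kifc1 with processed signals (-0.36, 0.0309) and with the mean of its probes (-0.27, 0.0315). Kifc1 and Kifc5c are near copies, and probes for them may detect each other's RNA. The second Kifc1 probe, whose accession names the related Kifc5b, gave -0.33 and was called (limma adjusted p over probes = 0.0203). Outside the name rule, Kif18b, a plus-end depolymerase, gave -1.06 ± 0.07 (SE; limma adjusted p over probes = 1.58e-06), lower than any mitotic kinesin within it. Cenpe, the kinesin-7 of the kinetochore, gave -0.34 (limma adjusted p = 0.00244).

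**Figure D3:**
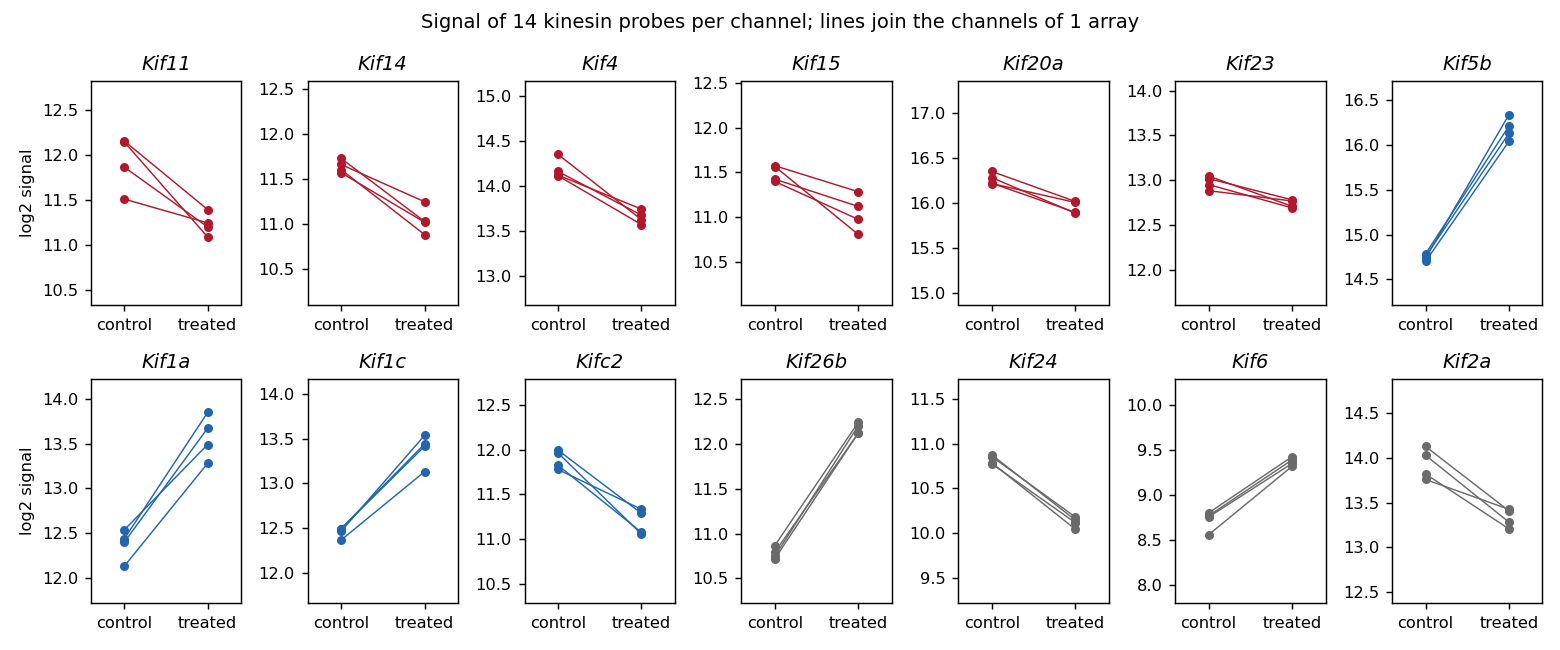
Normalised log2 signal of 14 kinesins, each on its own axis, in the 4 treated and 4 control samples, with 1 point per sample and lines joining the channels of an array. Kif5b rose on all 4 arrays from control levels of 14.70 to 14.78 to treated levels of 16.04 to 16.34, and Kif11 fell on all 4.

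The transport kinesins with the largest increases were 1 conventional kinesin and the Kif1 group. Kif5b, the widely expressed heavy chain of kinesin-1, which carries mitochondria, lysosomes and vesicles, had treated levels of 16.34, 16.04, 16.13 and 16.21 and control levels of 14.74, 14.70, 14.75 and 14.78. Every treated sample was more than a log2 unit above every control. Kif5b rose by 1.44 ± 0.07 (SE) on the log2 scale, or 2.71-fold (limma adjusted p = 2.09e-07), with 1.08 at its second probe. Its paralogs, the neuron-enriched heavy chains Kif5a and Kif5c, went the other way. Kif5a fell by 0.58 (limma adjusted p = 0.000224), with ratios of -0.33, -0.58, -0.64 and -0.76. Kif5c fell by 0.24 (limma adjusted p = 0.0154), and lost its call without array 3 (-0.22, limma adjusted p = 0.0502) or array 4 (-0.20, 0.0529). The summed signal of 5 neuron markers overlapped between treated (9799 to 15830) and control samples (8892 to 14923), and 1 of the 5, Stmn2, was called higher (1.41). Its part in these results was not tested.

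Kif1a, which carries synaptic vesicle precursors and dense core vesicles in neurons, had treated levels of 13.85, 13.28, 13.67 and 13.49 and control levels of 12.43, 12.13, 12.40 and 12.53 (chr1:94912112-94912171). All treated samples lay above all controls, and Kif1a rose by 1.20 ± 0.09 (SE), or 2.29-fold (limma adjusted p = 2.01e-06), with 0.66 at its second probe. Kif1c, a motor of integrin and dense core vesicles in many cell types, had treated levels of 13.53, 13.13, 13.44 and 13.41 and control levels of 12.46, 12.37, 12.50 and 12.49 (chr11:70543754-70543813). It rose by 0.92 ± 0.07 (SE), or 1.90-fold (limma adjusted p = 4.43e-06), and its 4 probes ranged from 0.64 to 1.06. Kif1b was measured by 4 probes that fall on different transcripts, and its brightest probe gave 0.59 (limma adjusted p = 0.000111).

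The Kif1b gene makes a short form, KIF1Bα, known for mitochondria, and a long form, KIF1Bβ, known for synaptic vesicle precursors, which have different tails. The array held 2 probes designed to each, at chr4:148611741-148611800 and chr4:148610316-148610375 for the short form (NM_008441) and chr4:148551200-148551259 and chr4:148552199-148552258 for the long form (NM_207682), all on the minus strand. The first 30 bases of each 60-base probe are shown, since the transcript a probe matches decides which form it reads, with no part in capitals.
Kif1b short form, A_51_P264956: caagaacaaattcggtttaagaacctgcaa
Kif1b short form, A_52_P458092: gcacgaactatatttgctaaaattatgcca
Kif1b long form, A_51_P324097: tggagcaagtcagagatcgtcagccgagag
Kif1b long form, A_52_P599014: ggacctgttcatgagatttttgtgattgcc
The short-form probes gave log2 ratios of 1.37 and 1.50 and the long-form probes 0.59 and 0.69. By array, the short-form mean was 1.37, 1.26, 1.92 and 1.19 and the long-form mean 0.74, 0.67, 0.60 and 0.56. The ratio of the short form, not its level, was the higher on all 4 arrays, by 0.79 ± 0.35 (SD, n = 4), with array 3 the largest at 1.33. An exact two-sided sign-flip permutation test gave p = 0.125, the smallest p that 4 arrays allow.

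Kif3a and Kif3b, the motor pair of heterotrimeric kinesin-2, which drives transport into cilia, rose by 0.31 (limma adjusted p = 0.00493) and 0.32 (limma adjusted p = 0.00344). Both calls were lost with median-centred processed signals, at 0.19 (limma adjusted p = 0.277) and 0.16 (0.345), and with the uncentred scanner ratios. Kifap3, the subunit that completes this complex, rose by 0.99 (0.26 at its second probe). Kif3c, the alternative partner of Kif3a, instead fell by 0.37 (limma adjusted p = 0.000972), with -0.08 at its second probe. Kif17, the homodimeric kinesin-2, fell by 0.53 (limma adjusted p = 0.000592), but its treated channel was well above background on only 2 of 4 arrays, and its ratio was -1.04 with processed signals and -1.09 with scanner ratios, so the size of this decrease is uncertain. The 5 tested markers of motile ciliated cells and spermatids had summed signals of 3546 to 4385 in the treated and 3511 to 4768 in the control samples, which overlapped. Of these markers 2 were called higher, Rsph1 (0.78) and Foxj1 (0.38), and 0 lower, and their part in these results was not tested.

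The minus-end directed transport kinesins were opposed. Kifc3, which acts at adherens junctions and in apical transport, rose by 0.45 (limma adjusted p = 0.000307), with ratios of 0.49, 0.54, 0.39 and 0.38 (0.31 with processed signals, limma adjusted p = 0.0595). Kifc2, best known from neurons, had treated levels of 11.33, 11.06, 11.08 and 11.29 and control levels of 11.78, 11.96, 11.83 and 11.99 (chr15:76498505-76498574). Its channels did not overlap, and it fell by 0.70 ± 0.09 (SE; limma adjusted p = 7.06e-05), level with the -0.70 of Kif24. The endosomal and vesicle motors of the kinesin-3 family were less steady. Kif13a rose by 0.42 (limma adjusted p = 0.0133), although array 1 gave -0.09, and lost its call without array 2 (0.32, limma adjusted p = 0.0655) or array 4 (0.35, 0.0626). Kif13b fell by 0.26 (limma adjusted p = 0.0176), lost its call without array 2 (-0.21, limma adjusted p = 0.09) or array 4 (-0.22, 0.0651), and gave 0.04 at its second probe. The early endosome motor Kif16b was not called (-0.17, limma adjusted p = 0.121). It was called lower without array 4 (-0.27, limma adjusted p = 0.0145), with processed signals (-0.34, 0.0376), with the scanner ratios (-0.39, 0.00829) and with the trend over probe GC content removed (-0.30, 0.0123).

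Of the 10 tested kinesins with other roles, 3 were called higher, 5 lower and 2 were not called, with a median of -0.31. Over all tested genes 37.6% were called higher and 30.9% lower. Kif26b, a member of a kinesin family without detectable motor activity that is known from kidney development and cell adhesion, had treated levels of 12.12, 12.12, 12.20 and 12.24 and control levels of 10.79, 10.72, 10.75 and 10.87 (chr1:180862723-180862782). The channels were far apart on every array, and Kif26b rose by 1.39 ± 0.07 (SE), or 2.62-fold (limma adjusted p = 1.47e-07). A probe that the array carries under the older name D230039L06Rik, which RefSeq tables now give as Kif26b, had a ratio of 0.0072. Its paralog Kif26a fell by 0.59 (limma adjusted p = 0.000323), with ratios of -0.49, -0.45, -0.52 and -0.93, and gave 0.0028 at its second probe.

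Kinesins tied to cilia did not share a direction. Kif6, of the kinesin-9 family and linked to motile cilia, had treated levels of 9.39, 9.35, 9.32 and 9.43 and control levels of 8.77, 8.75, 8.56 and 8.80 (chr17:49814611-49814670), and rose by 0.65 ± 0.07 (SE; limma adjusted p = 2.56e-05). Its relative Kif9 rose by 0.26 (limma adjusted p = 0.00992), and had 0.18 with median-centred processed signals, where it was not called (limma adjusted p = 0.289). The channels did not overlap for Kif6 and overlapped for Kif9. Kif7, a regulator of Hedgehog signalling at the tip of the primary cilium, fell by 0.48 (limma adjusted p = 0.000196), and its relative Kif27 fell by 0.40 (limma adjusted p = 0.000967). Kif24, a centriolar depolymerase that restrains cilium formation, had treated levels of 10.12, 10.15, 10.05 and 10.18 and control levels of 10.77, 10.87, 10.79 and 10.85 (chr4:41338920-41338979). It was lower on every array with little spread and fell by 0.70 ± 0.07 (SE; limma adjusted p = 1.28e-05), but an equally bright second probe gave -0.13 and was not called (limma adjusted p over probes = 0.217).

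Kif2a, a depolymerase of spindle poles and neuronal axons, had treated levels of 13.41, 13.28, 13.21 and 13.42 and control levels of 14.13, 14.03, 13.82 and 13.76 (chr13:107754467-107754526). The treated samples were all below the controls, and Kif2a fell by 0.60 ± 0.08 (SE; limma adjusted p = 0.000181), with -0.18 at its second probe. The kinesin-4 relatives Kif21a and Kif21b, which restrain microtubule growth, were not called. Kif21a had a ratio of -0.22 (limma adjusted p = 0.0608). It was called lower in 5 other settings: without array 4 (-0.30, limma adjusted p = 0.0322), with processed signals (-0.39, 0.0173), scanner ratios (-0.44, 0.00731), the mean of its probes (-0.20, 0.0424) and the GC trend removed (-0.32, 0.0207). Kif21b had 0.02 at its brightest probe (-0.055 and -0.10 with the other scalings), while its 2 dimmer probes gave -0.49 and -0.34 and were both called lower.

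Probes of the same gene were therefore compared throughout. Of the 38 tested kinesins, 26 had several probes that passed the filter. The second brightest probe had the smaller ratio in size for 18 of the 26 and the opposite sign for 5. None of the 26 genes had probes called in both directions, and 12 had all probes called in the same direction. With the second probe, the median of the 7 mitotic kinesins that have one moved from -0.32 to -0.16, whereas that of the 14 transport kinesins moved from 0.32 to 0.30. Several calls also depended on the scaling. With each array centred on its median in place of loess, 9 calls were lost, among them Kif15 (-0.35, limma adjusted p = 0.0668), Kif2c (-0.22, 0.223) and Kif23 (-0.20, 0.284) of the mitotic class. The others were Kif3a (0.31), Kif9 (0.32), Kif5c (-0.23), Kif3c (-0.31), Kif27 (-0.31) and Kif13b (-0.17), at limma adjusted p from 0.0832 to 0.383. Calls over all tested genes fell as well, from 6945 higher and 5713 lower to 5523 and 3586. The ratios of Kif3a and Kif5c moved by little, and that of Kif9 was larger than with loess. With the uncentred scanner ratios, Kif23 (-0.42), Kif5c (-0.41) and Kif13b (-0.51) had larger ratios in size and were called.

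**Figure D4:**
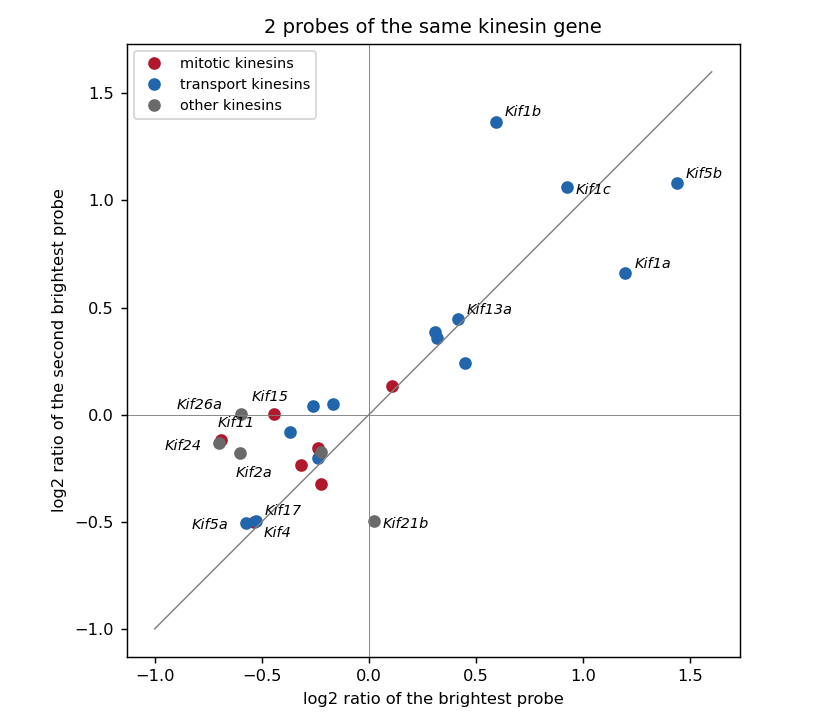
Log2 ratio of the second brightest probe (vertical axis) against that of the brightest probe (horizontal axis) for the 26 kinesins with several probes, coloured by class, with the line of equality. Kif5b, Kif1a and Kif1c were higher with both probes, while Kif11, Kif15, Kif24 and Kif26a moved to between -0.13 and 0.0035 with the second. That probe was dimmer by 3.52, 3.36 and 4.67 log2 units for Kif11, Kif15 and Kif26a, and by 0.05 for Kif24.

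Genes that work with the kinesins were taken from lists of spindle, cargo, dynein and tubulin genes. Their counts stand beside 37.6% of all tested genes called higher and 30.9% called lower. Of 32 tested spindle and cytokinesis partners 22 were called lower, 1 higher and 9 were not called, with a median log2 ratio of -0.25, close to the -0.24 of the mitotic kinesins. The checkpoint kinase Bub1b had -0.82, the kinetochore protein Cenpf -0.70 (-0.22 at its second probe, which was not called), Polo-like kinase Plk1 -0.60 and Incenp of the chromosomal passenger complex -0.57. The 1 higher gene was Ckap5, a microtubule polymerase (0.39), and its second probe gave -0.21. The summed signal of spermatogonial markers was likewise lower in the treated samples, and its part in this result was not tested.

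Of 22 tested kinesin light chains, adaptors and cargo links 11 were called higher, 7 lower and 4 were not called, with a median of 0.36. Among all tested genes, 37.6% were called higher and 30.9% lower. The scaffold Spag9 rose by 1.64 (0.33 at its second probe), the lysosomal GTPase Arl8a by 1.22, and the mitochondrial adaptor Trak1 by 1.40, against -0.18 at its second probe. The JNK scaffold Mapk8ip2 fell by 1.03. The light chains of kinesin-1 did not rise with Kif5b at their brightest probes: Klc2, Klc4 and Klc3 fell by 0.51, 0.54 and 0.34, and Klc1 had -0.09 and was not called, although its second probe gave 0.71.

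The opposing minus-end motor, cytoplasmic dynein with its activator dynactin, had 15 of 22 tested genes called higher, 3 lower and 4 not called. The median was 0.35. For this list and the tubulins, the shares of all tested genes were again 37.6% higher and 30.9% lower. The intermediate chain Dync1i1 rose by 2.52, the light chain Dynlt3 by 2.09, the dynactin subunit Dctn3 by 0.84 and Dync1i2 by 0.78. Of 15 tested tubulins, the track of all these motors, 5 were called higher, 7 lower and 3 were not called at their brightest probes. The median was -0.13. Among the lower tubulins, Tubb2a and Tuba1c were called higher at their second probes, with adjustment over probes. The direction of these genes is therefore not settled. Tubb5 was called lower at its second probe as well, and the other lower tubulins had no second probe. Tubb2b rose by 2.56, Tuba1a by 1.87 and Tubb3 by 1.39, isotypes abundant in neurons, whereas gamma-tubulin Tubg1, which nucleates microtubules, fell by 0.80. Tubulin genes are similar in sequence, and their probes may detect each other's RNA.

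**Figure D5:**
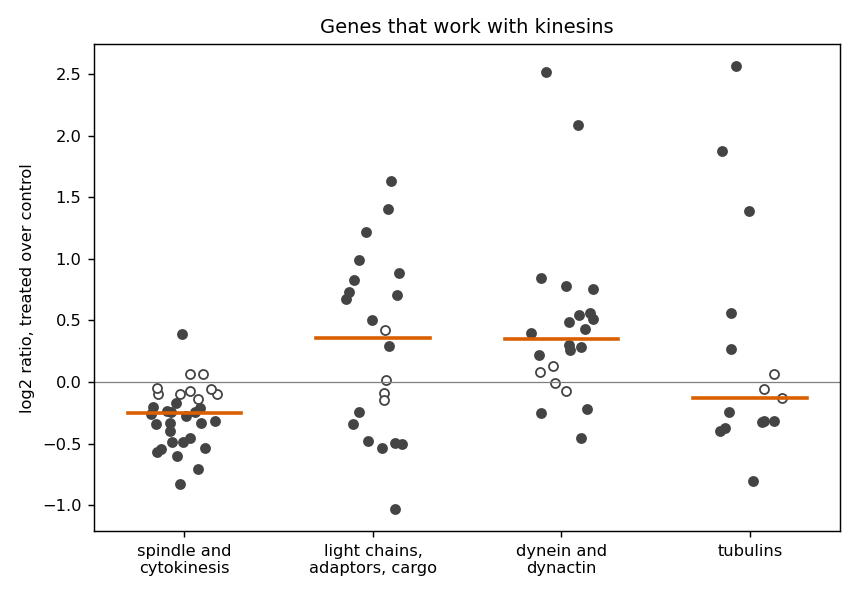
Log2 ratio of each tested gene in the lists of spindle and cytokinesis partners, light chains, adaptors and cargo links, dynein and dynactin, and tubulins, with 1 point per gene (filled where the gene was called) and the median as a line. The medians were -0.25, 0.36, 0.35 and -0.13 for the partner lists, and the tubulins had the widest range, from -0.80 to 2.56.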

How the data were processed

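The arrays carried 41174 probes besides controls (Agilent 44K, 60-base probes, mm9 positions per the file headers). Per the file headers, Agilent Feature Extraction 10.5.1.1 made the deposited intensity values, which are linear. The authors' deposited LogRatio is log10 of red over green. The deposited value table holds log2 green over red of the processed signals for 100% of probes (tolerance 0.001), with column medians from -0.263 to 0.112. In limma 3.58.1 (R 4.3.3), mean signals were corrected by normexp (offset 50) and loess, leaving out 141 to 171 outlier spots per array. Channel levels were then scaled by Aquantile. Probes were kept (27730) where 1 channel was well above background on 3 or more of the 4 arrays, and the brightest stood for each of 18495 genes. lmFit and eBayes tested the mean ratio with Benjamini-Hochberg adjustment over all genes, or over all kept probes where said. Replicates are biological per the labels, and all arrays share 1 slide and 1 scan per the file headers. The precision is limited by the 4 arrays. In a simulation of 17724 genes, both channels were made from the control channel with added random noise, and a small part of the genes was changed. There the fit recovered 64% of genes changed 1.25-fold and 100% of those changed 1.5-fold, with 3 false calls of 184. The simulation held no dye effect and no difference between cultures, so it does not give the error rate of the real calls.

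The kinesins, their classes and all lists were chosen with earlier results of these data known. Values per array were to be given for Kif11, Kif20a and Kif23 and, in each class, for up to 4 called genes with the largest ratio in size and 1 sign on all arrays. Of each partner list, up to 4 called genes were to be named by size. Other per-array values and Ckap5, Kifap3 and the light chains were added after their values were seen. Alternatives were other normalizations, background corrections, filters, probes, gene names and classes, removal of a GC trend, and leaving out each array. Gene names were updated through RefSeq tables (25097 probes by accession, 7973 by symbol), for an alternative only. Exon and UTR positions of probes were not analysed here.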

Additional observations from a re-analysis of the deposited data

Results flagged for a closer look

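Of 42 values checked for 1 array standing apart, the log2 ratio of Kif26a was picked out. Its ratio on array 4 (-0.93) lay away from the other arrays (-0.45 to -0.52), with a gap of 0.847 of the whole range, above the critical value of Dixon's test for 4 samples. Chance picks out about 1 in 20 such groups.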

How the results depend on the processing

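The mitotic median stayed below the transport median in every setting tried, with a difference of -0.61 to -0.29. Of 29 called kinesins, 12 kept their call and direction in every setting and 16 in every setting but the second probe, which 21 of the 29 have and with which 12 kept theirs. Higher calls numbered 7 with median-centred processed signals and 7 with the uncentred scanner ratios. Lower calls numbered 6 with the second probe, where 26 genes could be tested. Higher calls made up 37.9% of called kinesins in the main setting, against 54.9% of all called genes. These shares were 25.9% against 47.3% with processed signals and 23.3% against 41.7% with scanner ratios. With the second probe they were 57.1% against 58.2%. The mitotic median was -0.36 with processed signals, -0.41 with scanner ratios, -0.16 with the second probe and -0.30 with updated names. The transport median was 0.11 with scanner ratios. With Kif2a as mitotic and Kif21a and Kif21b as transport kinesins, it was 0.024 and the difference -0.29. Leaving out each array gave 10 to 11 higher and 17 to 18 lower calls. Higher calls then made up 35.7% to 39.3% of called kinesins, against 55.6% to 56.4% of all called genes. Mitotic medians were -0.28 to -0.22, transport medians 0.26 to 0.32 and differences -0.57 to -0.49.

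With the second probe the sign turned for Kif13b (0.040), Kif15 (0.0035), Kif16b (0.048), Kif26a (0.0028) and Kif21b (-0.49; -0.27 for the mean of its probes). With processed signals it turned for Kif20b (-0.025), Kif21b (-0.055) and Kif2b (-0.13), and with scanner ratios for the same genes (-0.074, -0.10 and -0.18). With the GC trend removed it turned for Kif20b (-0.019), Kif21b (-0.0068), Kif22 (0.057) and Kifc5c (0.17). Without array 3 it turned for Kif20b (-0.017), Kif2b (-0.024) and Kifc5c (0.015). Leaving out each array, Kif20b ranged from -0.017 to 0.22, Kif21b from -0.050 to 0.077 and Kif2b from -0.024 to 0.026, with Kif21b below 0 without array 1 and Kif2b (-0.0032) without array 4. The cause was not tested. Leaving out the pseudogene Kifc5c was chosen after seeing the data.

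Weak spots near background, such as Kif12 and treated Kif17, give ratios of limited precision. The test was paired by array, since each ratio sets the channels of an array against each other. No further pairing was possible because the labels hold 1 group.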
